A study of Rattus norvegicus with 9 samples.

Results

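The genes described here are enzymes of cholesterol synthesis in the hypothalamus of the female rat. The list held 8 enzymes, given here in the order of their steps: Hmgcs1, Idi1, Fdps, Fdft1, Sqle, Lss, Cyp51 and Dhcr7. Every array probe set whose annotation names exactly 1 gene, and that gene a listed enzyme, was taken. This gave 11 probe sets for 7 of the 8 enzymes, among 14217 genes named in this way in the table. Hmgcs1, the synthase that makes HMG-CoA ahead of the mevalonate step, was not analysed here. Of the 11 probe sets, 10 passed the filter on dim signals and were tested, and 1 of the 2 for Lss lay below it. No probe set named an enzyme of the list together with other genes.

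The study followed normal sexual development of the female rat. Each array held labelled RNA from the hypothalamus of 1 normal, untreated female. There were 3 juvenile animals of 26 days (replicates 1, 2 and 3), which the labels treat as the controls, 3 early pubertal animals of 29 days (replicates 7, 8 and 10) and 3 late pubertal animals of 31 days (replicates 12, 14 and 20). The labels used here name no strain, allele or drug, and age and pubertal stage change together in this design, so they cannot be told apart.

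Cholesterol is built from acetyl-CoA through mevalonate, isopentenyl and farnesyl diphosphate, squalene and lanosterol, and the pathway is controlled as a unit by the SREBP-2 transcription factor, which is held back by sterols. The brain makes its own cholesterol, because lipoproteins of the blood do not cross the blood-brain barrier in quantity. In the developing brain a large share of that cholesterol goes into myelin, and astrocytes supply neurons.

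Of 14 hypothalamus markers, 11 lay above the filter, among them Avp, Oxt, Hcrt and Pmch, and Pomc, Sim1 and Otp lay below it. The arrays differed in overall brightness. The median signal was 102 to 113 on the juvenile arrays, 79.8 to 101 on the early pubertal arrays and 102 to 122 on the late pubertal arrays. Values were therefore quantile-normalized as log2(signal + 16), and all log2 values below are on that scale unless the deposited level is named. No array stood apart, with correlations between arrays of 0.967 to 0.979, and no arrays were identical. In whole tissue, fewer cells of a type and less RNA per cell cannot be told apart.

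The promoters of 3 enzymes are shown because Fdps was the only enzyme whose stages did not overlap, while Idi1, 1 step before it, and Cyp51, further down, are controlled by the same factor and did overlap. Each is the 250 bases before the RefSeq start of the gene in build GRCr8, 5′ to 3′ on the gene's strand. Fdps lies on the minus strand at chr2:176804817-176805066, Idi1 on the minus strand at chr17:66547525-66547774, and Cyp51 on the plus strand at chr4:30991443-30991692. Capitals mark matches on either strand to the letters CCAAT (the NF-Y box) and GGGCGG (the Sp1 box), whose factors act beside SREBP at sterol genes.
Fdps: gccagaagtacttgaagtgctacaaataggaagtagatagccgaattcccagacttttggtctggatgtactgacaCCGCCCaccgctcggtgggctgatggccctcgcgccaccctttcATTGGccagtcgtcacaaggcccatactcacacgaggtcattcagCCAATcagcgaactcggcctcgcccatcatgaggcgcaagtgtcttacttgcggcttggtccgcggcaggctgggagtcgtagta
Idi1: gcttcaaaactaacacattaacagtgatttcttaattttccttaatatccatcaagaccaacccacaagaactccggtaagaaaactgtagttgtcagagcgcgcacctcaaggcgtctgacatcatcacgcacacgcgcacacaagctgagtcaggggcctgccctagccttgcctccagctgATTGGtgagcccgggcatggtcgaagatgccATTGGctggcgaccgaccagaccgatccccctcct
Cyp51: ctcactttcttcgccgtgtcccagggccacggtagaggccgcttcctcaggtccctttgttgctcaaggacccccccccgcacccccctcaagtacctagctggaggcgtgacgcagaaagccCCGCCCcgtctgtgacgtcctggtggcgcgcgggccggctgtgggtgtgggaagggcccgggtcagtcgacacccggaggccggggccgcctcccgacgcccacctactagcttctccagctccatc

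Fdps held 2 CCAAT matches, the first on the opposite strand starting 130 bases before the start and the second on the gene's strand at 85 bases. It also held 1 GGGCGG match, at 174 bases on the opposite strand. Idi1 held 2 CCAAT matches on the opposite strand, at 66 and 35 bases. Cyp51 held no CCAAT match in this window and 1 GGGCGG match, at 127 bases. Of the 5 measured enzymes with a promoter in the RefSeq table (these 3, Lss and Dhcr7), 3 held CCAAT and 4 held GGGCGG. Among 33469 promoters of the same length, 34% held CCAAT and 30.5% held GGGCGG. The letters CACNCCAC, the core of a sterol element and present in 4.89% of all promoters, had no match in these 5 windows. None of the matches overlapped except the 2 GGGCGG matches of Dhcr7, at 39 and 34 bases. These matches describe the sequence only and no binding was measured.

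The question was whether transcripts of the pathway differed between juvenile, early pubertal and late pubertal hypothalamus. The differences of the enzymes lay on both sides of 0 and were small, and among them Fdps, the farnesyl diphosphate synthase, gave the largest, higher in the early pubertal stage. By limma with Benjamini-Hochberg adjustment over 18625 probe sets, 0 of the 10 enzyme probe sets passed an adjusted p of 0.05 in early pubertal against juvenile arrays, as did 0% of all probe sets. The same held for late pubertal against juvenile arrays (0 of 10, and 0% of all), for late against early pubertal arrays (0 of 10, and 0% of all) and for the F test over the 3 stages (0 of 10, and 0% of all). At an unadjusted p under 0.05 the counts were 1 of 10 against 4.45% of all probe sets for early pubertal minus juvenile, 0 of 10 against 4.18% for late pubertal minus juvenile, 1 of 10 against 5.19% for late minus early pubertal, and 1 of 10 against 4.2% for the F test. The probe set was that of Fdps each time. The arrays of the stages did not overlap in 1 of 10 probe sets, higher, for early pubertal minus juvenile (3.85% of all higher, 4.46% lower) and in 1 of 10, lower, for late minus early pubertal (5.33% lower, 5.99% higher), again Fdps each time. They overlapped in 10 of 10 for late pubertal minus juvenile (5.91% of all did not and were higher, 5.51% lower). Both differences from the juvenile stage share the juvenile arrays and are given side by side for that reason, with no count across them.

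Over the 7 enzymes, each by its brightest probe set, 4 were above and 3 below 0 in early pubertal minus juvenile arrays. The median difference was 0.02, with a range from -0.19 to 0.29, beside a median of 0.00 and 51.0% above 0 over all 10595 named genes tested. In late pubertal minus juvenile arrays, 4 were above and 3 below 0, with a median of 0.03 and a range from -0.05 to 0.13, beside 0.00 and 50.9% over all genes. In late minus early pubertal arrays, 3 were above and 4 below 0, with a median of 0.00 and a range from -0.25 to 0.16. Over all genes that comparison had a median of 0.00 and 50.25% above 0. Centring each array on its median in place of quantile normalization put 2 of 7 above 0 in both differences from the juvenile stage. At the deposited level, where all tested probe sets had a median of -0.24 in early pubertal minus juvenile arrays and 0.22 in late minus early pubertal arrays, 1 of 7 was above 0 in the former and 6 of 7 in the latter, and 3 of 7 in late pubertal minus juvenile arrays.

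The early pubertal median was -0.06 without juvenile replicate 3, -0.01 without juvenile replicate 2 and -0.04 without early pubertal replicate 7. The late pubertal median was -0.02 without juvenile replicate 3 and -0.02 without late pubertal replicate 12, and without juvenile replicate 1 all 7 enzymes lay above 0, with a median of 0.10. The sign of the enzymes' median therefore rested on single arrays. Among animals of 1 stage the enzymes had a median standard deviation of 0.12 (0.08 for Fdps to 0.24 for Dhcr7). Over all named genes tested, which were not matched to the enzymes in brightness, it was 0.16.

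**Figure D1:**
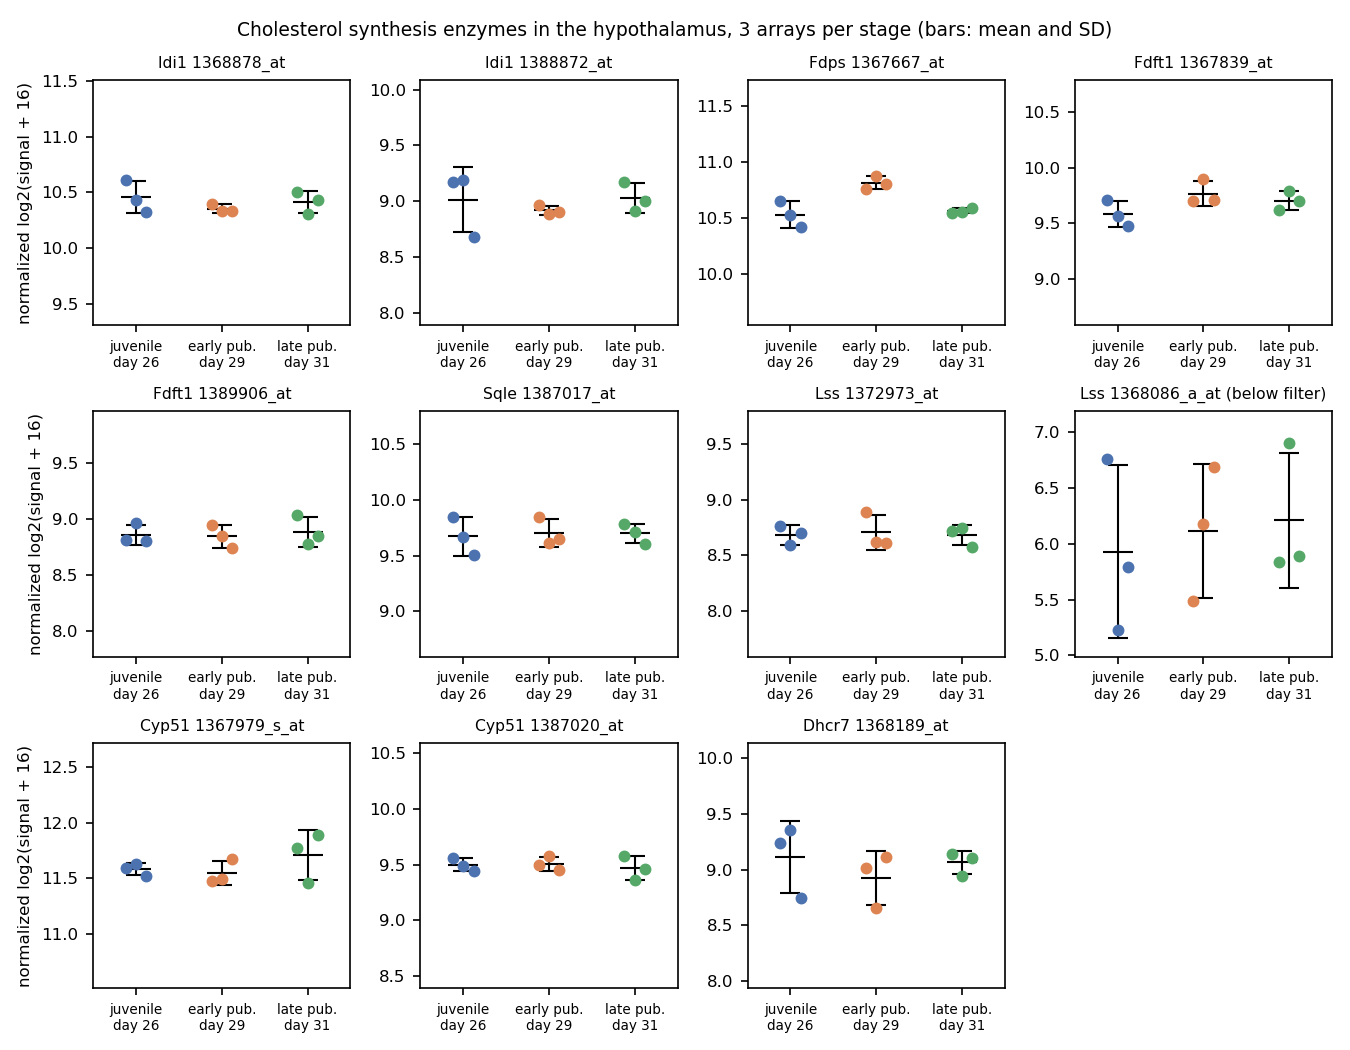
Normalized log2(signal + 16) of the 11 enzyme probe sets by stage (x axis: juvenile day 26, early pubertal day 29, late pubertal day 31). Points are arrays, 3 per stage, and bars give the mean and SD; all panels span the same log2 range. The 3 early pubertal points of Fdps lie above its other 6, and the stages overlap in the other panels.

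Fdps makes farnesyl diphosphate, the branch point from which sterols, ubiquinone, dolichol and the lipid anchors of prenylated proteins are made. On the normalized log2 scale Fdps (probe set 1367667_at) read 10.66, 10.52 and 10.41 in juvenile replicates 1, 2 and 3, with a mean of 10.53 ± 0.12 (SD, n = 3). It read 10.76, 10.88 and 10.81 in early pubertal replicates 7, 8 and 10, with a mean of 10.82 ± 0.06 (SD, n = 3). The late pubertal replicates 12, 14 and 20 read 10.55, 10.55 and 10.59, with a mean of 10.56 ± 0.02 (SD, n = 3). The 3 early pubertal arrays lay above all other arrays, and the juvenile and late pubertal arrays overlapped.

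The difference between early pubertal and juvenile arrays was 0.29 ± 0.07 (SE, 95% interval 0.13 to 0.44), a 1.22-fold higher level. Its unadjusted p in limma was 0.00219, the 23rd smallest of 18625, and its adjusted p was 0.994. Late pubertal minus juvenile was 0.03 ± 0.07 (SE, 95% interval -0.13 to 0.19). Late minus early pubertal was -0.25 ± 0.07 (SE, 95% interval -0.41 to -0.09), with an unadjusted p of 0.00503 and an adjusted p of 0.914 in limma. Of all probe sets tested, 3.85% had every early pubertal array above every juvenile array and 5.33% had every late pubertal array below every early pubertal array. The pattern of 3 early pubertal arrays above the other 6 was seen in 193 probe sets, or 1.04%.

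The deposited signals of Fdps did not show this separation. They were 1892, 1518 and 1327 in the juvenile arrays, 1680, 1648 and 1527 in the early pubertal arrays, and 1448, 1505 and 1755 in the late pubertal arrays. At this level the early pubertal arrays lay within the juvenile range, and the log2 difference was 0.05 ± 0.14 (SE), against the median of -0.24 over all probe sets. Late minus early pubertal was -0.05 ± 0.14 (SE) against a median of 0.22. The difference of Fdps is therefore one relative to the other probe sets of each array. With each array centred on its median, early pubertal minus juvenile was 0.26. On the quantile-normalized scale, leaving out single arrays gave 0.23 (without juvenile replicate 3) to 0.35 (without juvenile replicate 1).

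**Figure D2:**
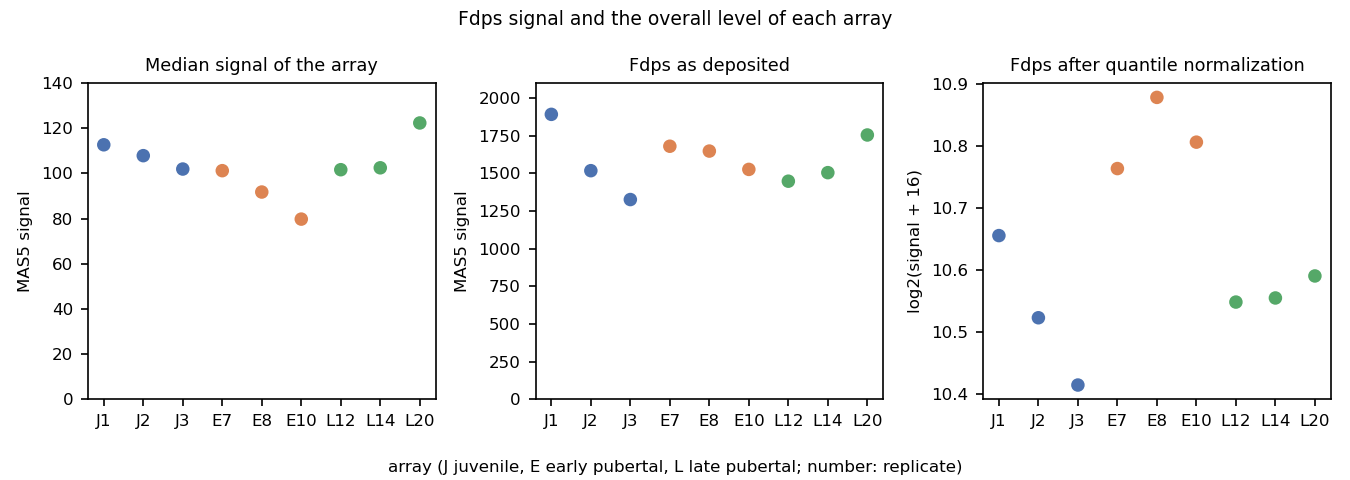
Median signal of each array (left, MAS5 signal), Fdps as deposited (middle, MAS5 signal) and Fdps after quantile normalization (right, log2(signal + 16)), with arrays on the x axis marked J for juvenile, E for early pubertal and L for late pubertal with the replicate number. The early pubertal arrays have low medians (79.8 to 101) and deposited Fdps signals inside the juvenile range, and lie above the other 6 arrays after normalization.

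Fdft1 joins 2 farnesyl diphosphates into squalene, the first step committed to sterols. Its probe set 1367839_at read 9.71, 9.57 and 9.48 in the juvenile arrays, 9.70, 9.90 and 9.71 in the early pubertal arrays, and 9.62, 9.79 and 9.70 in the late pubertal arrays. Juvenile replicate 1 lay at the level of the pubertal arrays and juvenile replicates 2 and 3 lay below all of them. Early pubertal minus juvenile was 0.18 ± 0.09 (SE, 95% interval -0.02 to 0.39, unadjusted p = 0.0764 and adjusted p = 0.994 in limma), and at the deposited level it was -0.08. Late pubertal minus juvenile was 0.12 ± 0.09 (SE, 95% interval -0.09 to 0.32), and late minus early pubertal was -0.06 ± 0.09 (SE, 95% interval -0.27 to 0.14).

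The second Fdft1 probe set, 1389906_at, did not share this pattern. It read 8.82, 8.96 and 8.80 in the juvenile arrays, 8.95, 8.85 and 8.75 in the early pubertal arrays, and 9.04, 8.78 and 8.85 in the late pubertal arrays, and all stages overlapped. Early pubertal minus juvenile was -0.01 ± 0.11 (SE, 95% interval -0.24 to 0.22) and late pubertal minus juvenile 0.03 ± 0.11 (SE, 95% interval -0.20 to 0.26). Over the 9 arrays the 2 Fdft1 probe sets had r = -0.27, so they disagree on the order of the animals.

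Idi1 turns isopentenyl diphosphate into its reactive isomer and feeds Fdps. Its probe set 1368878_at read 10.61, 10.43 and 10.33 in the juvenile arrays, 10.40, 10.33 and 10.33 in the early pubertal arrays, and 10.51, 10.31 and 10.43 in the late pubertal arrays. Juvenile replicate 1 was the highest of the 9 and the stages overlapped. Early pubertal minus juvenile was -0.10 ± 0.09 (SE, 95% interval -0.29 to 0.09), late pubertal minus juvenile -0.04 ± 0.09 (SE, 95% interval -0.23 to 0.15) and late minus early pubertal 0.06 ± 0.09 (SE, 95% interval -0.13 to 0.25). The second probe set, 1388872_at, read 9.18, 9.19 and 8.67 in the juvenile arrays, 8.96, 8.89 and 8.90 in the early pubertal arrays, and between 8.91 and 9.17 in the late pubertal arrays. Juvenile replicate 3 was its lowest array, below every pubertal animal, while the other 2 juveniles were the highest. Its early pubertal minus juvenile difference was again -0.10, with a wider error of 0.14 (SE), and the 2 Idi1 probe sets had r = 0.79 over the 9 arrays.

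Sqle, the squalene epoxidase that uses oxygen and is a control point of the pathway, read 9.85, 9.67 and 9.50 in the juvenile arrays, 9.84, 9.61 and 9.65 in the early pubertal arrays, and 9.78, 9.71 and 9.61 in the late pubertal arrays. The highest and lowest values both belonged to juveniles, so both later stages lay within the juvenile range. The differences from juvenile were 0.03 ± 0.10 (SE, 95% interval -0.20 to 0.26) in early and 0.03 ± 0.10 (SE, 95% interval -0.20 to 0.25) in late pubertal arrays, and at the deposited level -0.22 and -0.01. Lss closes the ring to form lanosterol. Its tested probe set 1372973_at read 8.76, 8.59 and 8.70 in the juvenile arrays, 8.89, 8.62 and 8.61 in the early pubertal arrays, and 8.72, 8.74 and 8.58 in the late pubertal arrays. The stages overlapped, with differences from juvenile of 0.02 ± 0.11 (SE, 95% interval -0.22 to 0.26) in early and 0.00 ± 0.11 (SE, 95% interval -0.24 to 0.24) in late pubertal arrays. The other Lss probe set, 1368086_a_at, lay below the filter with deposited signals between 23.4 and 105, and was not tested.

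Cyp51 removes a methyl group from lanosterol, and its fungal counterpart is the target of azole drugs. Its probe set 1367979_s_at read 11.59, 11.63 and 11.53 in the juvenile arrays, 11.48, 11.49 and 11.68 in the early pubertal arrays, and 11.78, 11.46 and 11.89 in the late pubertal arrays. Late pubertal replicates 12 and 20 were the highest of the 9 and late pubertal replicate 14 was the lowest, which gave that stage an SD of 0.23. Late pubertal minus juvenile was 0.13 ± 0.10 (SE, 95% interval -0.09 to 0.34), late minus early pubertal 0.16 ± 0.10 (SE, 95% interval -0.05 to 0.37) and early pubertal minus juvenile -0.03 ± 0.10 (SE, 95% interval -0.25 to 0.18). The second probe set, 1387020_at, had a range of 0.22 over the 9 arrays, the narrowest among the tested enzyme probe sets, with late pubertal minus juvenile at -0.03 ± 0.09 (SE, 95% interval -0.22 to 0.16). The 2 Cyp51 probe sets had r = 0.17. The suffix of the first marks probes that can match more than 1 transcript.

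Dhcr7 carries out the last reduction to cholesterol in the Kandutsch-Russell branch of the pathway, and its loss causes Smith-Lemli-Opitz syndrome. It read 9.24, 9.36 and 8.75 in the juvenile arrays, 9.01, 8.65 and 9.11 in the early pubertal arrays, and 9.14, 8.94 and 9.11 in the late pubertal arrays. It had the widest range of the tested enzyme probe sets, 0.71, set by juvenile replicate 2 and early pubertal replicate 8. Early pubertal minus juvenile was -0.19 ± 0.16 (SE, 95% interval -0.54 to 0.16), late pubertal minus juvenile -0.05 ± 0.16 (SE, 95% interval -0.41 to 0.30) and late minus early pubertal 0.14 ± 0.16 (SE, 95% interval -0.21 to 0.49). Over the 10 tested probe sets the 95% intervals reached from -0.54 to 0.44 for early pubertal minus juvenile, from -0.41 to 0.34 for late pubertal minus juvenile and from -0.41 to 0.49 for late minus early pubertal. The Fdps intervals for early pubertal minus juvenile and for late minus early pubertal left out 0, and all the other intervals included it.

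**Figure D3:**
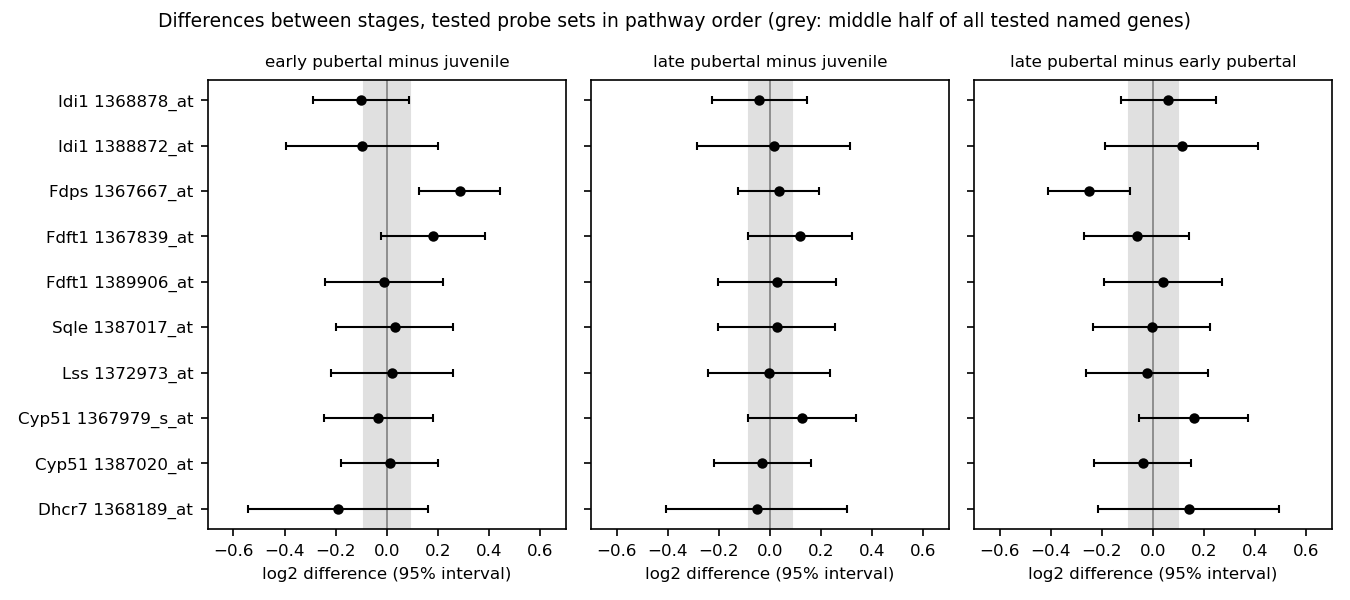
Log2 differences between stages of the 10 tested enzyme probe sets, with 95% intervals as bars (x axis: log2 difference; y axis: probe sets in pathway order). The grey band holds the central part of all named genes tested, from the lower to the upper quartile (-0.09 to 0.09 for early pubertal minus juvenile). The intervals of Fdps lie above 0 in early pubertal minus juvenile and below 0 in late minus early pubertal, and every other interval includes 0.

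The profiles of the enzymes from animal to animal were compared over the 9 arrays, whose values share an array and a normalization. Of 21 pairs of enzymes, 12 had r above 0, and the median r was 0.02. The highest was Fdps with Fdft1 probe set 1367839_at (r = 0.77, rho = 0.78, and r = 0.66 without the 2 arrays farthest from the median), and the value was 0.82 after each stage's mean was removed. Fdps with the other Fdft1 probe set had r = -0.16. The 2 arrays left out were those farthest from the median of the enzyme earlier in the pathway, so they can differ between pairs. Sqle had r = 0.67 with Lss, but 0.27 without the 2 farthest arrays of Sqle. It had r = 0.63 with Idi1, but 0.24 without the 2 farthest arrays of Idi1. Idi1 with Dhcr7 had r = 0.65, and 0.68 without the 2 farthest arrays of Idi1. The lowest was Lss with Cyp51, at -0.53, and -0.14 without the 2 farthest arrays. With the stage means removed the median r over the 21 pairs was 0.26. These are descriptions of 9 arrays, with no test.

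Averaged over the 7 enzymes, the deviation from the mean of all arrays was 0.09, 0.00 and -0.15 in juvenile replicates 1, 2 and 3. It was 0.05, -0.04 and 0.02 in the early pubertal arrays and 0.05, -0.04 and 0.02 in the late pubertal arrays. The juvenile animals thus spanned a wider range than either later stage, with 6 of 7 enzymes above their mean in juvenile replicate 1 and 1 of 7 in juvenile replicate 3.

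Myelin markers showed the same 2 extremes. Of 18 oligodendrocyte and myelin markers, 16 were tested, none of them at 0. Juvenile replicates 1, 2 and 3 had mean deviations of 0.15, 0.08 and -0.25 for these markers. The early pubertal arrays had 0.04, 0.09 and -0.04, and the late pubertal arrays -0.02, -0.03 and -0.02. Their summed normalized signal was 34055 to 40880 in juvenile, 37866 to 39825 in early pubertal and 37575 to 38513 in late pubertal arrays. Over the 9 arrays the mean of the enzymes and that of the markers had r = 0.77 and rho = 0.40. Without juvenile replicates 3 and 1, the arrays farthest from the median of the enzymes' mean, r was -0.29, so the relation rests on those animals. The stages overlapped in the markers' mean deviation between juvenile and either later stage. Of the single markers, 11 of 16 were above 0 in early and 8 of 16 in late pubertal minus juvenile arrays (1 and 8 at the deposited level), and 1 and 0 of them had stages that did not overlap. The former was Aspa, which is named here after its values were seen, at 0.28 ± 0.14 (SE). Of all probe sets, 3.85% lay higher and 4.46% lower without overlap in early pubertal minus juvenile arrays. In late pubertal minus juvenile arrays the shares were 5.91% and 5.51%. Mbp, a myelin protein, differed by 0.04 ± 0.05 (SE) and 0.00 ± 0.05 (SE), and Mog by 0.08 ± 0.14 (SE) and -0.01 ± 0.14 (SE). Their part in the enzymes' values was not tested.

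**Figure D4:**
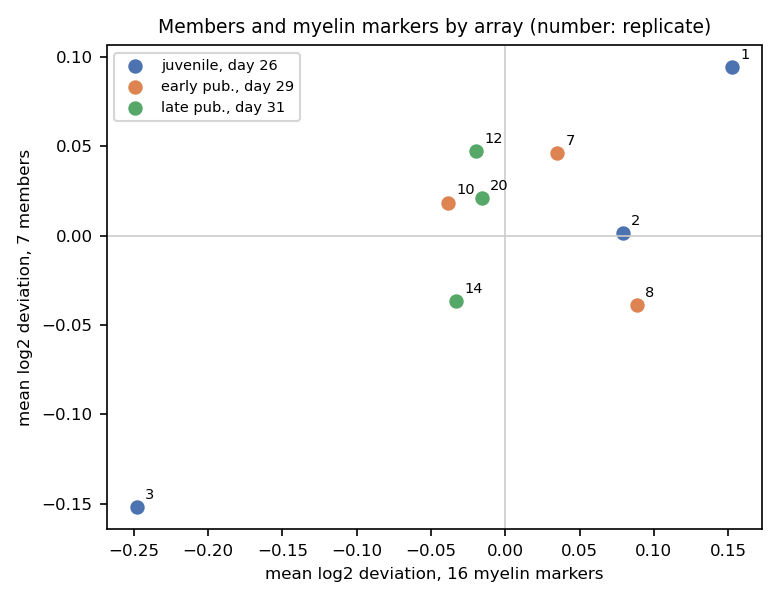
Mean log2 deviation of the 7 measured enzymes (y axis) against that of 16 oligodendrocyte and myelin markers (x axis), 1 point per array, coloured by stage and numbered by replicate. Juvenile replicate 3 (-0.25 for the markers, -0.15 for the enzymes) and juvenile replicate 1 (0.15 and 0.09) are the extremes, and the other 7 arrays lie close together.

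Markers of other cells were set beside Fdps, whose early pubertal arrays stood apart. Of 10 microglia markers, 8 were tested, none at 0 and with Itgam and Trem2 below the filter. Their summed normalized signal was 2227 to 2465 in juvenile, 2419 to 2663 in early pubertal and 2051 to 2145 in late pubertal arrays, so it overlapped between the first 2 stages and was separate, and lower, in the third. In late minus early pubertal arrays 0 of 8 were above 0 (median -0.19), and 0 of 8 with arrays centred on their medians (-0.18). At the deposited level 6 of 8 were above 0 (median 0.04), beside a median of 0.22 over all probe sets. That direction therefore holds relative to the array and not for the signal as deposited. The direction of late pubertal minus juvenile did not turn under any of these scalings. There 1 of 8 lay above 0 (median -0.19), 1 of 8 at the deposited level (-0.21) and 0 of 8 with arrays centred on their medians (-0.22). Over the 9 arrays Fdps had r = 0.71 and rho = 0.68 with the mean of these markers, 0.53 without early pubertal replicates 8 and 10, its farthest from the median, and 0.91 with the stage means removed. With the 16 myelin markers Fdps had r = 0.53, 0.68 without those arrays and 0.85 with the stage means removed. The 11 other synthesis enzymes tested gave r = 0.58 and rho = 0.72 with Fdps. Their r was 0.66 without those arrays and 0.64 with the stage means removed. SREBP genes, oligodendrocyte precursor markers and astrocyte markers gave r = 0.55, 0.47 and 0.42 with Fdps, and 0.17, -0.15 and -0.01 without those arrays. Neuron, leptomeninges and choroid plexus markers gave 0.17, 0.17 and -0.23. A relation to Fdps was thus not particular to microglia markers. Fdft1 probe set 1367839_at had r = 0.42 with the microglia markers, and 0.89 with the stage means removed. Without juvenile replicate 3 and early pubertal replicate 8, its farthest from the median, r was 0.04. The 9 endothelial markers, all tested, were above 0 in 6 and 4 of 9 in early and late pubertal minus juvenile arrays (1 and 3 at the deposited level). Their r with Fdps was 0.59, or -0.24 without early pubertal replicates 8 and 10, and 0.53 with the stage means removed. The 10 leptomeninges and fibroblast markers were all tested. Of these, 10 of 10 were above 0 in early and 10 of 10 in late pubertal minus juvenile arrays. The counts were 10 and 9 with arrays centred on their medians (medians 0.12 and 0.27), and 3 and 9 at the deposited level. Their summed signals were 8271 to 10535 in juvenile, 8831 to 12694 in early pubertal and 10143 to 11575 in late pubertal arrays. In limma 2 and 3 of 10 had an unadjusted p under 0.05, beside 4.45% and 4.18% of all probe sets. Without overlap, 0 and 2 of 10 lay above the juvenile arrays, beside 3.85% and 5.91% of all probe sets. Dcn, a matrix proteoglycan of this list, differed by 0.33 ± 0.15 (SE) and 0.41 ± 0.15 (SE). Of 12 astrocyte markers, 9 were above 0 in early and 9 in late pubertal minus juvenile arrays (3 and 10 at the deposited level). Gfap was at 0.16 ± 0.07 (SE) and 0.17 ± 0.07 (SE) and Aqp4 at 0.01 ± 0.05 (SE) and 0.06 ± 0.05 (SE). Astrocyte markers lay above the juvenile arrays without overlap in 2 of 12 (early) and 4 of 12 (late), beside 3.85% and 5.91% of all probe sets. An unadjusted p under 0.05 in limma was seen in 2 and 4 of 12, beside 4.45% and 4.18% of all probe sets. Of 12 neuron markers, 4 and 1 were above 0 (0 and 2 at the deposited level), with medians of -0.07 and -0.13. In late pubertal minus juvenile arrays 3 of 12 (Syt1, Gad1 and Slc32a1) had an unadjusted p under 0.05 in limma, beside 4.18% of all probe sets. The late pubertal arrays lay below the juvenile ones without overlap in 3 of 12, beside 5.51% of all probe sets. Those 3 were Gad1, Slc32a1 and Eno2. These 4 genes are named after their values were seen. Snap25, the neuron gene fixed for naming, was at 0.04 ± 0.05 (SE) and 0.00 ± 0.05 (SE). Of 8 choroid plexus markers 3 were tested, with 2 above 0 and 1 below in early and again in late pubertal minus juvenile arrays (0 and 2 above at the deposited level). They ranged from -0.11 to 0.07 and from -0.17 to 0.44, with Ttr at 0.06 ± 0.35 (SE) and 0.44 ± 0.35 (SE). None of these genes passed the adjusted threshold in limma, and their part in the Fdps values was not tested.

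The rest of the sterol pathway gave values of the same size. Of 13 other synthesis enzymes listed, 11 were tested and the rest were not analysed here. In early pubertal minus juvenile arrays 8 lay above and 3 below 0, with a median of 0.06, and in late pubertal minus juvenile arrays 8 above and 3 below, with a median of 0.04. None passed in limma, and 0 of 11 had an unadjusted p under 0.05 in either. With arrays centred on their medians 6 and 5 of the 11 lay above 0, and at the deposited level 0 and 6 did. The mevalonate steps were Acat2 (0.06 ± 0.10 early, 0.04 ± 0.10 late, each minus juvenile with its SE), Mvk (0.14 ± 0.12 and -0.11 ± 0.12), Pmvk (0.03 ± 0.12 and 0.02 ± 0.12) and Mvd (0.11 ± 0.16 and 0.09 ± 0.16). Mvk, the mevalonate kinase, had its late pubertal arrays below those of both earlier stages, with late minus early pubertal at -0.25 ± 0.12 (SE). Of all probe sets, 5.51% lay lower without overlap in late pubertal than in juvenile arrays, and 5.33% than in early pubertal arrays. The steps after lanosterol were Tm7sf2 (0.19 ± 0.13 and 0.11 ± 0.13), Lbr (-0.02 ± 0.23 and -0.13 ± 0.23), Msmo1 (0.00 ± 0.07 and 0.13 ± 0.07), Nsdhl (0.09 ± 0.10 and 0.14 ± 0.10), Hsd17b7 (-0.12 ± 0.14 and 0.14 ± 0.14), Ebp (0.12 ± 0.21 and -0.22 ± 0.21) and Sc5d (-0.03 ± 0.07 and 0.01 ± 0.07). Msmo1, the methyl sterol oxidase that follows Cyp51, had its late pubertal arrays above the juvenile ones, a pattern that 5.91% of all probe sets shared.

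The genes that sense sterol and activate SREBP were all measured. Of these 7, 6 lay above 0 in early pubertal minus juvenile arrays, with a median of 0.10, and 5 in late pubertal minus juvenile arrays, with a median of 0.06. None passed in limma and none had an unadjusted p under 0.05. Srebf2, which encodes the factor that drives the enzymes, differed by 0.12 ± 0.11 (SE) and 0.00 ± 0.11 (SE), and Srebf1, its relative for fatty acid genes, by 0.20 ± 0.17 (SE) and 0.15 ± 0.17 (SE). The escort protein Scap differed by 0.09 ± 0.13 (SE) and 0.06 ± 0.13 (SE). Insig1, the retention protein that is itself an SREBP target, differed by 0.13 ± 0.12 (SE) and 0.13 ± 0.12 (SE), and Insig2 by -0.03 ± 0.11 (SE) and -0.02 ± 0.11 (SE). The proteases Mbtps1 and Mbtps2 gave 0.10 ± 0.11 (SE) and 0.07 ± 0.14 (SE) in early, and 0.01 ± 0.11 (SE) and 0.11 ± 0.14 (SE) in late pubertal arrays. With arrays centred on their medians 6 and 4 of the 7 lay above 0, and at the deposited level 0 and 4 did, so the early pubertal count holds relative to the array and not for the signal as deposited.

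**Figure D5:**
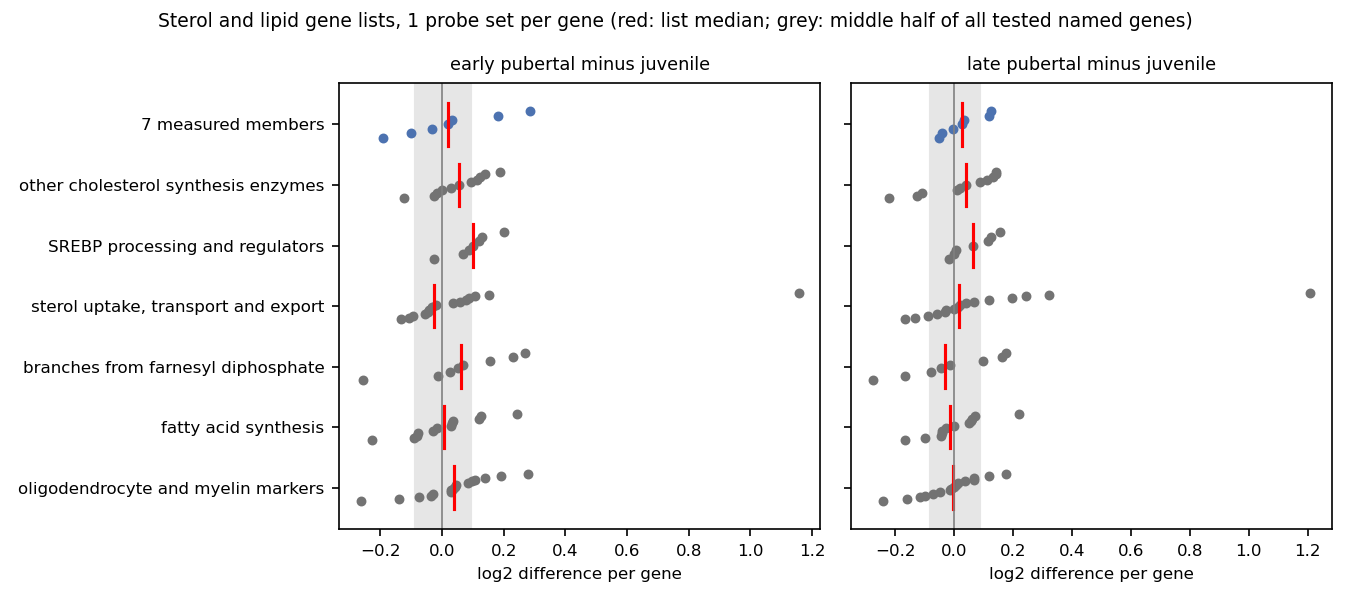
Log2 difference per gene (x axis) for early pubertal minus juvenile (left) and late pubertal minus juvenile (right) in 7 lists, 1 point per gene by its brightest tested probe set. Red lines give the list medians (0.02 and 0.03 for the 7 measured enzymes, 0.10 and 0.06 for SREBP processing) and the grey band runs from the lower to the upper quartile of all named genes tested. The single point past 1 is Abca1.

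Genes for sterol uptake, transport and export stand downstream of the enzymes. Of 20 listed, 16 were tested, and 7 lay above 0 in early and 9 in late pubertal minus juvenile arrays, while the rest were not analysed here or lay below the filter. The counts were 6 and 7 with arrays centred on their medians, and 2 and 7 at the deposited level. Abca1, the pump that loads cholesterol onto apolipoproteins, gave 1.16 ± 0.45 (SE) and 1.21 ± 0.45 (SE) by its brightest probe set. Juvenile replicate 2 lay far below the other arrays, with a deposited signal of 99.4 beside 516 and 457 in juvenile replicates 1 and 3 and 387 to 746 in the pubertal arrays. The other Abca1 probe sets gave 0.65 and -0.13 for early, and 0.50 and -0.04 for late pubertal arrays. Apoe, the main carrier in the brain, differed by 0.09 ± 0.05 (SE) and 0.07 ± 0.05 (SE), Stard4, which moves sterol inside cells, by -0.03 ± 0.16 (SE) and 0.00 ± 0.16 (SE), and Soat1, which esterifies it, by -0.11 ± 0.18 (SE) and -0.17 ± 0.18 (SE). Cyp46a1, the neuronal hydroxylase that lets cholesterol leave the brain, differed by -0.04 ± 0.12 (SE) and 0.12 ± 0.12 (SE).

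The genes whose profiles were most like the mean of the 7 enzymes were picked by Pearson correlation over the 9 arrays among 10588 named genes. They were Tmco5a (r = 0.93), Gnal (0.92), Slc25a15 (0.91), Ccdc113 (0.89), Lrrc40 (0.89) and Prkab1 (0.88). Such values are high by choice. Without juvenile replicates 3 and 1 they were 0.76, 0.62, 0.86, 0.64, 0.85 and 0.58 in the same order.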

How the data were processed

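Total RNA from 9 hypothalami was labelled by in vitro transcription and hybridised to rat Affymetrix arrays. The authors deposited 1 linear signal intensity per probe set and array, computed with MAS5 per the submitters' processing notes. The target level and version of MAS5 are not given in the sources used. No detection calls entered, and precision is limited by having 3 arrays a stage. Of 31099 probe sets, 57 controls were left out. Of the remainder, 20826 carry 1 gene symbol in the platform annotation, 436 carry several and 9780 stay unnamed. Entrez identifiers tied 20758 to a present gene record and changed 0 symbols. Signals were quantile-normalized between arrays as log2(signal + 16), because their trimmed means differed by up to 1.42 times. Probe sets whose mean lay above the 40th percentile (18625) were tested with limma 3.58.1 (R 4.3.3) in a single model of all 9 arrays with a term for each stage, an intensity trend, two-sided tests and Benjamini-Hochberg adjustment at 0.05, done separately for each comparison. The fit was tested on simulated data. A gene is represented by its brightest tested probe set.

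The enzymes and the gene lists were chosen with earlier results of these data known. Genes named are all probe sets of the listed enzymes, the other synthesis and SREBP genes, fixed examples of the other lists, and the 6 genes most alike. Promoters are from the RefSeq table for build GRCr8, which holds 6 of the 8 listed enzymes. Alternatives covered the added constant, normalization, filter, variance prior, array weights, arrays in the fit, arrays left out, and the probe set that stands for a gene. The counts of the other gene lists under the other scalings were chosen after seeing the data.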

Additional observations from a re-analysis of the deposited data

How the results depend on the processing

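No enzyme probe set passed the threshold under any alternative run. At the deposited level the calls over all probe sets numbered 10 for early pubertal minus juvenile, 1 for late pubertal minus juvenile, 22 for late minus early pubertal and 15 for the F test, where the main count was 0. The enzymes' median was then -0.23 for early pubertal minus juvenile and 0.21 for late minus early pubertal, with 1 and 6 of 7 above 0. Signs turned for Fdft1 1367839_at (-0.077), Lss (-0.24), Sqle (-0.22) and Cyp51 1387020_at (-0.24) in early pubertal minus juvenile. They turned for Sqle (-0.0087) and Idi1 1388872_at (-0.021) in late pubertal minus juvenile, and for Fdft1 1367839_at (0.16), Lss (0.21), Sqle (0.21) and Cyp51 1387020_at (0.19) in late minus early pubertal. These shifts follow the array medians, by construction. Centring on the median left 2 of 7 above 0 in early pubertal minus juvenile and 2 of 7 in late pubertal minus juvenile. It gave -0.031 for Lss, -0.0097 for Sqle and -0.032 for Cyp51 1387020_at in the former, and -0.011 for Fdps, -0.021 for Sqle, -0.033 for Idi1 1388872_at and -0.010 for Fdft1 1389906_at in the latter. Array weights gave 1 call in late pubertal minus juvenile and 5 of 7 enzymes above 0 in late minus early pubertal. They gave 0.019 for Cyp51 1367979_s_at and -0.029 for Lss in early pubertal minus juvenile, 0.052 for Dhcr7 in late pubertal minus juvenile, and 0.0023 for Lss and 0.010 for Sqle in late minus early pubertal. The mean of all probe sets of a gene, which takes in the dim one of Lss, gave 0.14 for Lss in late pubertal minus juvenile and 0.034 in late minus early pubertal. Beyond the construction named, the cause was not tested.

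Leaving out single arrays gave 0 to 1 calls in late pubertal minus juvenile and 0 to 1 in the F test. Between 3 and 7 enzymes then lay above 0 in late pubertal minus juvenile and 3 to 5 in late minus early pubertal. In early pubertal minus juvenile the ranges that crossed 0 were -0.097 to 0.0017 for Cyp51 1367979_s_at, -0.070 to 0.070 for Lss, -0.056 to 0.12 for Sqle, -0.022 to 0.041 for Cyp51 1387020_at and -0.063 to 0.041 for Fdft1 1389906_at. In late pubertal minus juvenile they were -0.025 to 0.095 for Fdps, -0.23 to 0.070 for Dhcr7, -0.11 to 0.036 for Idi1 1368878_at, -0.052 to 0.047 for Lss, -0.061 to 0.11 for Sqle, -0.086 to 0.022 for Cyp51 1387020_at, -0.16 to 0.10 for Idi1 1388872_at and -0.045 to 0.085 for Fdft1 1389906_at. In late minus early pubertal they were -0.074 to 0.066 for Lss, -0.049 to 0.066 for Sqle, -0.097 to 0.011 for Cyp51 1387020_at and -0.034 to 0.096 for Fdft1 1389906_at. The difference of Fdps in early pubertal minus juvenile kept its sign under each alternative. No paired analysis was possible because the stages share no replicate numbers. With 3 animals per stage, small differences between stages could not be resolved.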

Other observations

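Genes next to the sterol steps were read in the same way, as values. Farnesyl diphosphate, the product of Fdps, also feeds 9 listed genes of other branches, of which 8 were tested. In early pubertal minus juvenile arrays 6 of them lay above 0, with a median of 0.06, and in late pubertal minus juvenile arrays 3, with a median of -0.03. At the deposited level 1 and 3 did. Ggps1, which extends farnesyl to geranylgeranyl diphosphate, differed by -0.26 ± 0.14 (SE) and -0.28 ± 0.14 (SE), and both later stages lay below the juvenile arrays. Fntb, a farnesyltransferase subunit named here after its values were seen, lay above the juvenile arrays in both later stages, at 0.15 ± 0.09 (SE) and 0.16 ± 0.09 (SE). Separation upward was seen in 3.85% and 5.91% of all probe sets. Separation downward was seen in 4.46% of all probe sets for the early and 5.51% for the late pubertal arrays, and neither gene passed the adjusted threshold in limma. Of 12 fatty acid synthesis genes, 6 lay above 0 in early and 5 in late pubertal minus juvenile arrays, with medians of 0.01 and -0.02, and at the deposited level 0 and 6 did. Fasn, the fatty acid synthase, differed by -0.08 ± 0.08 (SE) and -0.04 ± 0.08 (SE), and Acly, which makes acetyl-CoA for both pathways, by -0.03 ± 0.08 (SE) and 0.00 ± 0.08 (SE). The desaturases Scd and Scd2 differed by 0.04 ± 0.15 (SE) and -0.02 ± 0.04 (SE) in early, and by -0.05 ± 0.15 (SE) and -0.04 ± 0.04 (SE) in late pubertal arrays.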
